A study of Mus musculus with 75 samples.

Results

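The Nanos genes Nanos1, Nanos2 and Nanos3 and their partner Dnd1 were taken by name from the expression table, where all 4 were found among 26218 genes and each had a value in all 75 libraries. The libraries were mouse germ cells and germ cell-like cells, profiled by SC3-seq, which reads the 3′ ends of polyadenylated RNA, from 1 ng of RNA each. Values are RPM, the usual depth-scaled read counts, here scaled to the reads assigned to genes. The groups of this study were sex and stage in the embryo, and treatment, genotype and day in culture.

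NANOS proteins are zinc-finger proteins that bind messenger RNA together with Pumilio proteins and bring in the CCR4-NOT complex, which shortens poly(A) tails and so silences the message. In the mouse, NANOS3 keeps migrating primordial germ cells alive, and NANOS2 holds fetal male germ cells out of meiosis. DND1, an RNA-binding protein whose loss in Ter mice empties the gonad of germ cells, works with NANOS2 on its RNA targets. NANOS1 is known in the mouse from brain and testis and is not required for the germ line.

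The embryo libraries came from germ cells of ICR:C57BL/6 (1:1) embryos, 2 libraries per group. They were sorted by Dppa3-EGFP, carried as 1 transgene copy, up to E13.5, and by Ddx4-RFP at the 2 later stages. Sex is labelled from E12.5 on, and libraries of E9.5 to E11.5 have none. All cultures were germ cell-like cells made from embryonic stem cells (PGCLCs) that carried Prdm1-mVenus and Dppa3-ECFP. In the 129S1:C57BL/6 (1:1) line, RB, RA and CT cultures were taken at days 5, 7 and 9, next to CT at day 3 and cells at day 0, with 2 libraries per group. The DBA/2:C57BL/6 (1:1) experiment held Stra8-/- cells (4 libraries per day: 2 of line SK1, 1 of SK2 and 1 of SK3) and wild-type cells (2 per day), at CT day 3 and RB days 5, 7 and 9. A further 7 libraries stood alone, 1 named 0R3B at day 9 and 6 of a C57BL/6 line that also carried Gtrosa26tm1Sor. The labels do not spell out RB, RA, CT or 0R3B, and say that the agents of female fate were given from culture day 3 on. The series title names bone morphogenetic protein and retinoic acid.

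Library depth was estimated at 1.08 to 15.6 M reads, with a median of 3.12, so that 3 reads, the smallest amount taken as measured, were 0.192 to 2.78 RPM. Replicates correlated over genes with Pearson r from 0.963 to 0.989 in log2 values (50 pairs). Whether replicates were separate litters or cultures is not labelled, and the p-values below cover only the spread between these libraries. Of 10 germ cell genes, 8 reached 5 RPM at E9.5, 9 at E10.5, 8 in females at E14.5 and E15.5, and all 10 in the other embryo groups. At E9.5 the 8 blood and endothelial genes summed to 3000.3 to 3194 RPM, above the 2929 to 2944 RPM of the germ cell genes, with 1723 to 1810.3 RPM of the embryonic globin Hbb-y. At E10.5 the sums were 286 to 287 RPM for blood and endothelium and 3569 to 3615 for germ cells. The part of blood RNA in the E9.5 and E10.5 values was not tested. Since E14.5 cells were sorted by another reporter than E13.5 cells, stage and reporter cannot be told apart across that step.

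The promoters of the Nanos genes are shown because Nanos2 and Nanos3 stood high together in male germ cells from E13.5 while Nanos1 stood low. Each is RefSeq sequence of GRCm38.p6, the mm10 assembly the submitters name. It runs from 250 bases before the RefSeq start to 50 after, read in the direction of the gene. The GENCODE annotation places the starts of Nanos2 (18987400) and Nanos3 (84185217) further upstream, and no window was taken there. The promoter of Dnd1 is not shown. Capitals mark matches to a set of 9 short motifs searched on both strands, so that a match on the other strand appears as its reverse complement.
Nanos2, chr7:18987274-18987573, plus strand: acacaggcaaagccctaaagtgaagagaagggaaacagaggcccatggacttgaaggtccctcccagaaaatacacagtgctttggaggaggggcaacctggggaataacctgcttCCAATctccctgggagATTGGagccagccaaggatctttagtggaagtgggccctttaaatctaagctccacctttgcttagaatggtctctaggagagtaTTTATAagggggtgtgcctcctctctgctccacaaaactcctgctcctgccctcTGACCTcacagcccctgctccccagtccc
Nanos3, chr8:84176503-84176802, minus strand: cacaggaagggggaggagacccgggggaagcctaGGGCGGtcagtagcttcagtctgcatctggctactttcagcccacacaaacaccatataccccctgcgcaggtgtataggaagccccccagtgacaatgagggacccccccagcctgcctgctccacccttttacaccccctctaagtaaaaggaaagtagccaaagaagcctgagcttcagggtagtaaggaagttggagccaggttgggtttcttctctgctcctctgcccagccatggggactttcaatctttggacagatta
Nanos1, chr19:60755737-60756036, plus strand: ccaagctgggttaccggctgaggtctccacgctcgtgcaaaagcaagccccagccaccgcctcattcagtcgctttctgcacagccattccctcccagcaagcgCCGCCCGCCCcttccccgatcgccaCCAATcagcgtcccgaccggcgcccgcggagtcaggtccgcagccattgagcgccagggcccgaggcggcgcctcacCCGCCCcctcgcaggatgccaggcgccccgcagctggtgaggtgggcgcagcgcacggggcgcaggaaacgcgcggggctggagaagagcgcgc

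The Nanos2 window held no CpG and was 53% G and C, whereas that of Nanos1 held 34 CpG at 71.7% and that of Nanos3 3 CpG at 55.3%. The median over 32851 promoters was 7 CpG and 52.7%. In the Nanos2 window the matches were the TATA box TATAAA (found in 13.6% of all promoters), the nuclear receptor half-site AGGTCA (16.3%) and, at 2 places, the CCAAT box CCAAT (37.4%). Nanos3 held only the GC box GGGCGG (35.7%), and Nanos1 held the CCAAT box and, at 3 places of which 2 overlap, the GC box. These windows held no E-box CACGTG (7.15% of promoters), no GATA site AGATAA (11.2%), no CRE TGACGTCA (1.79%), no SMAD palindrome GTCTAGAC (0.213%) and no CAGA box CAGACA (21.04%). These are matches of letters and show no binding.

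Nanos2 (Entrez 378430, chromosome 7 from 18987524 to 18988962, plus strand) and Nanos1 (Entrez 332397, chromosome 19 from 60755987 to 60759914, plus strand) are each annotated with 1 exon. Nanos3 (Entrez 244551, chromosome 8 from 84173733 to 84176552, minus strand) has 2 exons and Dnd1 (Entrez 213236, minus strand) has 4. An antisense transcript, Gm45058, lies across Nanos2 and is not in the table. The last 140 bases of Dnd1 overlap the end of Wdr55, a gene of ribosome assembly on the opposite strand. Whether reads were counted by strand is not given in the sources used here, so reads of such partners cannot be told apart. In the annotation used, Dnd1 has a pseudogene, Dnd1-ps, on chromosome 5, which is also not in the table. All values of Nanos1, Nanos2 and Dnd1 were whole reads, and Nanos3 had a value ending on a fraction of a read in 11 libraries.

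Nanos2 RNA stood high in male germ cells from E13.5 on, was low in E12.5 males and was at or near 0 in every other group. At E12.5 the male libraries had 2.60 and 0.687 RPM (7 and 2 reads, the second fewer than the 3 taken as measured) and both female libraries had 0. At E13.5 Nanos2 stood at 30.8 and 30.5 RPM in male libraries, against 0 and 0.321 in female libraries. Males and females were furthest apart at E14.5, with 114 and 89.7 RPM in males and 0 and 0.274 in females. At E15.5 the male libraries had 43.7 and 40.9 RPM and both female libraries had 0. Each male library lay above each female library at each of these stages, and the 6 libraries of E9.5 to E11.5 were all at 0. In bulk libraries, fewer cells with a transcript and less transcript per cell cannot be told apart.

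A gene was called, and is said to have risen or fallen, at an adjusted p below 0.05 (limma, Benjamini-Hochberg over all genes tested) where the log2 fold change, taken on RPM + 1, reached 1 either way. By this rule Nanos2 was higher in males at all 4 stages, of which the E12.5 call is the weakest. No library of E12.5 reached the 5 RPM needed for a test, and Nanos2 entered through the later males. The E12.5 call was lost with only the compared groups fitted, as given below. The log2 fold change at E12.5 was 1.30 ± 0.36 (SE, limma adjusted p = 0.0191), followed by 4.78 ± 0.36 (adjusted p = 9.94e-10), 6.50 ± 0.36 (adjusted p = 2.81e-13) and 5.44 ± 0.36 at E15.5 (adjusted p = 3.97e-12). Since 1 was added to each RPM, these understate the change. Counted in reads, Nanos2 was at least 3.44-fold higher in males at E12.5 and at least 97.0-fold higher at E15.5, against a floor of 3 reads over both female libraries. The ratio was 202 at E13.5 (95% counting interval 35.8 to 8018) and 714 at E14.5 (128 to 28245), each against 1 female read. The E12.5 call did not hold without male replicate 1 (log2 fold change 0.75, limma adjusted p = 0.297), nor without either female library (1.30, adjusted p = 0.0718 and 0.0874). Of the 4 genes described, 1 was called at E12.5, where 6.53% of all genes tested were called in either direction, and 3 at E13.5, where 16.7% were. All 4 were called at E14.5 (48.3% of all genes), and 3 of them at E15.5 (53.6%).

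The male course of Nanos2 was called at E12.5 against E11.5 (at least 3.71-fold higher, from the same 9 male reads, with 6.93% of all genes called) and in 2 further steps. The E12.5 step was lost without either E11.5 library or without male replicate 1 (limma adjusted p = 0.078 to 0.284). It rose at E13.5 against E12.5 (log2 fold change 3.68, limma adjusted p = 1.18e-06, with 4.34% of all genes called) and at E14.5 against E13.5 (1.69, adjusted p = 0.000428, with 32.3% called, or 0.0934 with a pseudocount of 0.1). At E15.5 against E14.5 the difference was -1.24 with a limma adjusted p of 0.0529, where 1.91% of all genes were called, so the lower male level at E15.5 did not pass. It passed with a pseudocount of 5, with no filter on low values, and under either other scaling (limma adjusted p = 0.000177 to 0.0456). The sex difference itself grew from stage to stage by 3.48 ± 0.51 at E13.5 against E12.5 (limma adjusted p = 0.000903) and by 1.71 ± 0.51 at E14.5 against E13.5 (adjusted p = 0.00818). Over all genes the sex difference changed for 1.87% and 38.5% in these steps.

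**Figure D1:**
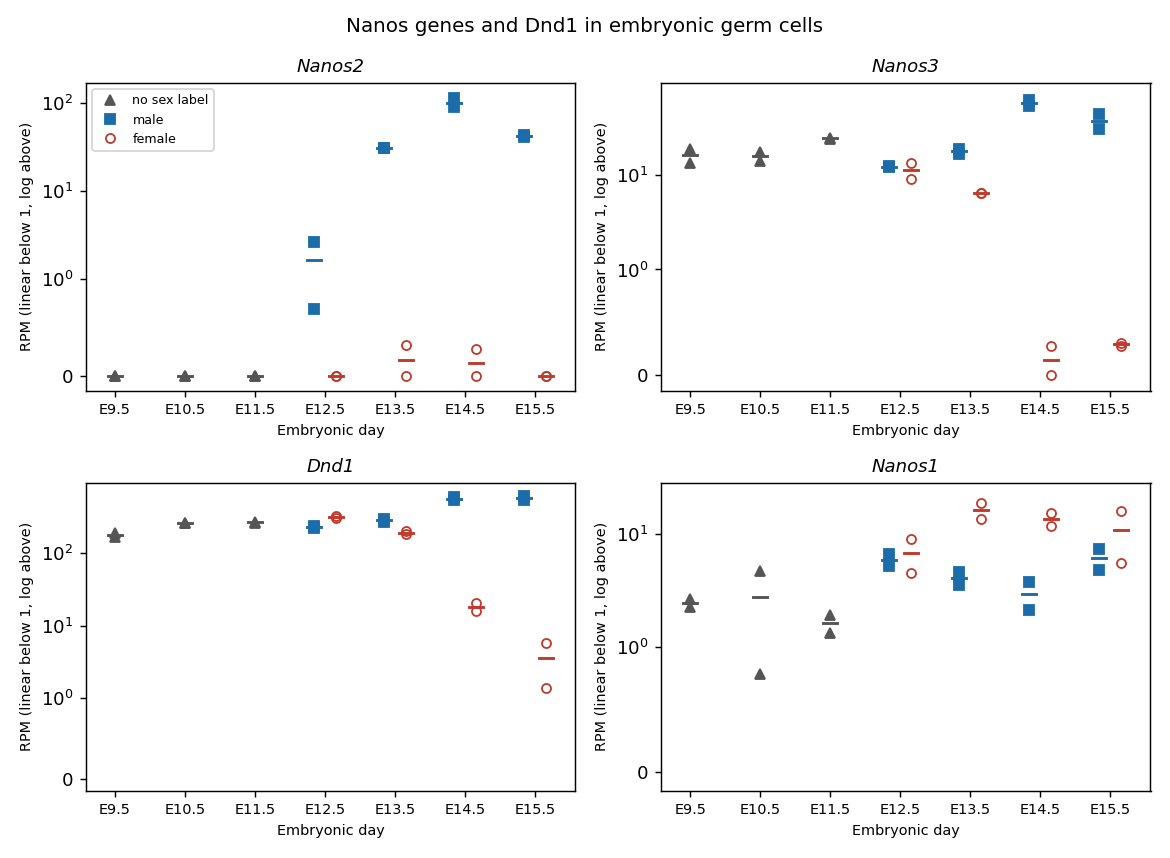
RPM of each gene by embryonic day in each library (points) with group means (bars), 2 libraries per group, male left of female, on an axis that is linear below 1 RPM and logarithmic above. Nanos2, Nanos3 and Dnd1 stand higher in males than in females at E14.5 and E15.5, and Nanos1 stands higher in females at E13.5 and E14.5.

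Nanos3 was present in every embryo group before the sexes parted, and at E14.5 nearly absent from female germ cells while it stood at its highest in male ones. The libraries had 18.6 and 13.3 RPM at E9.5, 17.5 and 13.9 at E10.5, and 24.7 and 23.7 at E11.5. At E12.5 Nanos3 had 12.3 and 12.0 RPM in males and 9.04 and 13.3 in females, and the groups overlapped. Against E11.5 the female value had fallen (log2 fold change -1.07, limma adjusted p = 0.0145, with 8.48% of all genes called), and the male difference of -0.94 (adjusted p = 0.0382) missed the fold limit. The female call was lost with a pseudocount of 0.1 or 5, and without either E11.5 library or female replicate 1 (-1.10 to -0.82, limma adjusted p = 0.0623 to 0.138).

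From E13.5 the sexes differed in Nanos3. Males had 16.5 and 18.9 RPM and females 6.34 and 6.41 at E13.5 (log2 fold change 1.34 ± 0.30, limma adjusted p = 0.00155). At E14.5 the 2 male libraries had 62.1 and 53.2 RPM, whereas the female libraries had 0 and 0.274, which is 1 read. The limma log2 fold change was 5.69 ± 0.30 (adjusted p = 1.22e-13), and the ratio of reads 405 (95% counting interval 72.3 to 16041). At E15.5 males had 30.0 and 44.1 RPM and females 0.304 and 0.278 (4.86 ± 0.30, adjusted p = 1.17e-12), a ratio of 128 (35.0 to 1065). No male library overlapped a female one from E13.5 on. Within females Nanos3 fell at E14.5 against E13.5 by 2.71 on the log2 scale (limma adjusted p = 7.38e-08, with 35.5% of all genes called), and within males it rose in the same step (1.65, adjusted p = 7.64e-05). The sex difference changed by 4.36 ± 0.43 in this step (adjusted p = 2.5e-08).

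Dnd1 had the same split between the sexes, with its widest gap at E15.5. For Nanos2 and Nanos3 the sex difference did not pass as changed at E15.5 against E14.5 (-1.06 and -0.84, limma adjusted p = 0.235 and 0.265). Their female values were at or near 0 at both stages, so a later gap in Dnd1 than in these genes is not shown. Dnd1 had 193 and 171 RPM at E9.5, 261 and 265 at E10.5, and 270.1 and 266 at E11.5. Male libraries had 226 and 239 RPM and female libraries 325 and 305 at E12.5, which did not overlap but did not pass (log2 fold change -0.44, limma adjusted p = 0.274). At E13.5 the values were 273 and 300.3 RPM in males, and 183 and 202 in females (0.57, adjusted p = 0.0875). Dnd1 then stood at 596 and 546 RPM in males at E14.5, against 20.9 and 15.9 in females (4.89 ± 0.25, limma adjusted p = 6.69e-14). At E15.5 it had 630.3 and 554 RPM in males and 5.78 and 1.39 in females (7.20 ± 0.25, adjusted p = 5.5e-17).

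Female Dnd1 fell in 2 steps, by 3.33 on the log2 scale at E14.5 against E13.5 (limma adjusted p = 1.43e-10) and by 2.26 at E15.5 against E14.5 (adjusted p = 1.41e-06, with 4.91% of all genes called). In males the E14.5 level was 0.99 above E13.5 (limma adjusted p = 0.002), just under the fold limit, and E15.5 was called higher than E11.5 (1.14, adjusted p = 0.000354, or 0.97 and under the limit with median centring). The sex difference changed by 4.32 ± 0.35 at E14.5 against E13.5 (adjusted p = 1.68e-09) and by 2.31 ± 0.35 at E15.5 against E14.5 (adjusted p = 0.000288, with 4.37% of all genes called). Wdr55, whose end overlaps that of Dnd1, was also higher in males at these stages. It had 30.6 to 33.7 RPM in males and 7.67 to 11.49 in females at E14.5, and 23.0 to 29.3 and 2.51 to 5.78 at E15.5 (log2 fold changes 1.67 and 2.47, both called). In males at E15.5 against E11.5, where Dnd1 was called higher, Wdr55 was called lower (-1.03, limma adjusted p = 0.0016), and at E12.5 the sex difference of Wdr55 was 0.45 where that of Dnd1 was -0.44, neither called. The part of Wdr55 reads in the Dnd1 values was not tested.

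Nanos1 (a family member with no known need in the mouse germ line) went the other way and was higher in female germ cells. It had 2.25 and 2.66 RPM at E9.5, 0.780 and 4.72 at E10.5, and 1.31 and 1.92 at E11.5. At E12.5 males had 6.70 and 5.15 RPM and females 9.04 and 4.52, and the groups overlapped. Males had 3.49 and 4.60 RPM and females 13.6 and 18.9 at E13.5 (log2 fold change -1.76 ± 0.49, limma adjusted p = 0.0077). At E14.5 the male values were 2.11 and 3.72 RPM and the female values 15.3 and 11.8 (-1.91 ± 0.49, adjusted p = 0.0014). The groups did not overlap at these 2 stages. At E15.5 males had 4.82 and 7.41 RPM and females 16.1 and 5.57, which overlapped and did not pass (-0.60, 95% interval -1.61 to 0.41, adjusted p = 0.275). The E13.5 call was lost without male replicate 1 or female replicate 2 (limma adjusted p = 0.0646 and 0.0754).

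Against E11.5, Nanos1 was higher at E15.5 in both sexes, in males by 1.43 (limma adjusted p = 0.013, with 47.1% of all genes called) and in females by 2.03 (adjusted p = 0.000735, with 52.6% called). The male call was lost with a pseudocount of 5 (0.74), with quantile normalization (0.65), and without E11.5 replicate 1 or male replicate 2 (1.26 and 1.16, limma adjusted p = 0.0787 and 0.107). The step at E12.5 was called in females (1.52, limma adjusted p = 0.0308), and was lost without either E11.5 library or female replicate 1 (1.08 to 1.69, adjusted p = 0.0754 to 0.238). It was also lost with a pseudocount of 5 (0.81, limma adjusted p = 0.0381), without the filter (1.52, adjusted p = 0.0951) and with quantile normalization (1.34, adjusted p = 0.0538). The median of all genes in the male comparison was itself 0.21, and 3595 genes were called higher and 2324 lower (3141 and 2717 after median centring, 2920 and 3116 after quantile normalization). The change of the sex difference in Nanos1 passed in none of the 3 steps between stages (adjusted p = 0.206 to 0.873), so the loss of the call at E15.5 is not shown to be a change.

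Markers of other cells moved with sex as well. The 12 gonadal somatic genes summed to 10.99 to 20.47 RPM in males and 5.08 to 5.91 in females at E12.5, and to 35.4 to 36.2 and 7.05 to 16.1 at E13.5. They summed to 53.7 to 78.0 RPM in males and 23.9 to 29.9 in females at E14.5, with 1 and 5 of them at 0 in both libraries, and to 49.7 to 50.5 and 23.1 to 39.5 at E15.5. The male sums were thus above the female ones at all 4 stages. The list includes genes of the fetal testis, among them Sox9, Amh, Dhh, Cyp11a1 and Cyp17a1. It also holds Foxl2, Fst, Wt1, Gata4 and Nr5a1. At E14.5 Cyp11a1 had 9.72 to 17.5 RPM and Cyp17a1 8.86 to 25.3 in males, and both were at 0 in females. The sums depend on which genes are listed, and whether male libraries held more somatic cells was not tested. The 9 fibroblast genes were lower in males at E13.5, at 5.25 to 10.47 RPM against 19.9 to 21.5 in females. They were higher in males at E14.5, at 60.3 to 135 RPM against 46.2 to 47.4 in females, and at E15.5, at 89.3 to 107 against 16.7 to 38.7. The 8 blood and endothelial genes summed to 61.7 to 63.5 RPM in males and 124 to 134.5 in females at E13.5, to 35.9 to 116 and 41.2 to 62.7 at E14.5, and to 119 to 195 and 72.4 to 225 at E15.5, with overlap at the 2 later stages. The part of such cells in the values above was not tested.

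In culture Nanos2 was almost never seen. It was above 0 in 9 of the 53 culture libraries, at 0.170 to 1.403 RPM, and did not reach the 5 RPM needed for a test. In the 129S1:C57BL/6 line it was at 1.19 RPM in 1 RB library of day 9 and at 0 in the other 21. At this depth, 3 reads were 0.700 to 1.19 RPM in those libraries, so smaller amounts were not detectable. The Stra8-/- libraries had at most 1.403 RPM and the wild-type libraries at most 0.724.

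Nanos3 and Dnd1 fell under RB and under RA by day 9 in the 129S1:C57BL/6 line. Dnd1 had 40.1 and 46.4 RPM under RB and 52.3 and 51.7 under RA at day 9, against 144 and 140.0 under CT. Nanos3 had 3.97 and 1.88 RPM under RB and 5.67 and 7.38 under RA, against 13.497 and 17.5 under CT. In both genes every treated library lay below both CT libraries. Dnd1 fell by 1.70 ± 0.16 on the log2 scale under RB against CT (limma adjusted p = 4.6e-09) and by 1.43 ± 0.16 under RA (adjusted p = 4.66e-07). Nanos3 fell by 2.11 ± 0.33 under RB (adjusted p = 1.05e-05) and by 1.13 ± 0.33 under RA (adjusted p = 0.0137). The same 2 CT libraries stand in both comparisons. The RA call of Nanos3 was lost without RA replicate 1 (-0.96, limma adjusted p = 0.105) and without CT replicate 2 (-0.95, adjusted p = 0.117).

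Wdr55 had 8.05 to 9.13 RPM under RB, 16.96 to 18.9 under RA and 23.0 to 31.8 under CT at day 9. It was called lower under RB (-1.55, limma adjusted p = 3.63e-05) and not under RA (-0.57, adjusted p = 0.123), and its part in the Dnd1 values was not tested.

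Of the 3 genes tested in the line, 2 were called at day 9 for RB against CT, where 36.7% of all genes were called, and 2 for RA against CT, where 16.3% were. The median of all genes was 0.19 for RB and 0.20 for RA. Calls split into 2915 higher and 1439 lower for RB (2137 and 2266 after median centring, 2103 and 2378 after quantile normalization) and 1578 and 356 for RA (1052 and 670, and 861 and 815). Dnd1 was at -2.02 under RB and -1.70 under RA with median centring, and Nanos3 at -2.43 and -1.40.

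RB against RA gave no call among them at day 9, where 24.8% of all genes were called. Nanos3 was lower under RB by 0.98 on the log2 scale (95% interval -1.67 to -0.30, limma adjusted p = 0.0202), under the fold limit. It was called with a pseudocount of 0.1, under both other scalings (median centring, quantile normalization), and without RA or RB replicate 1. Dnd1 differed by -0.26 (95% interval -0.59 to 0.06, limma adjusted p = 0.185). Nanos1 differed by 0.06 (-0.87 to 0.99, adjusted p = 0.929).

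The day-9 differences built up over the culture. Day 0 libraries had 143 and 145 RPM of Dnd1 and 27.0 and 25.6 of Nanos3, and CT day 3 libraries had 175 and 156 of Dnd1 and 20.4 and 24.7 of Nanos3. At day 5 Dnd1 had 124 and 147 RPM under RB, 116 and 137 under RA and 108 and 135 under CT, and all 3 groups overlapped. At day 7 it had 67.1 and 73.6 under RB, 94.8 and 79.0 under RA and 109.5 and 117 under CT. RB lay below CT there by 0.68 on the log2 scale (limma adjusted p = 0.0019), less than the fold limit. Nanos3 at day 7 had 7.59 and 7.04 RPM under RB, 7.73 and 14.51 under RA and 8.33 and 12.7 under CT, with RA and CT overlapping. The RB effect itself changed at day 9 against day 5, by -1.85 ± 0.22 for Dnd1 (limma adjusted p = 9.94e-07) and -1.98 ± 0.47 for Nanos3 (adjusted p = 0.00201), in a contrast that called 29.7% of all genes. Neither gene passed for CT day 9 against CT day 3 (limma adjusted p = 0.468 for Dnd1 and 0.401 for Nanos3).

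**Figure D2:**
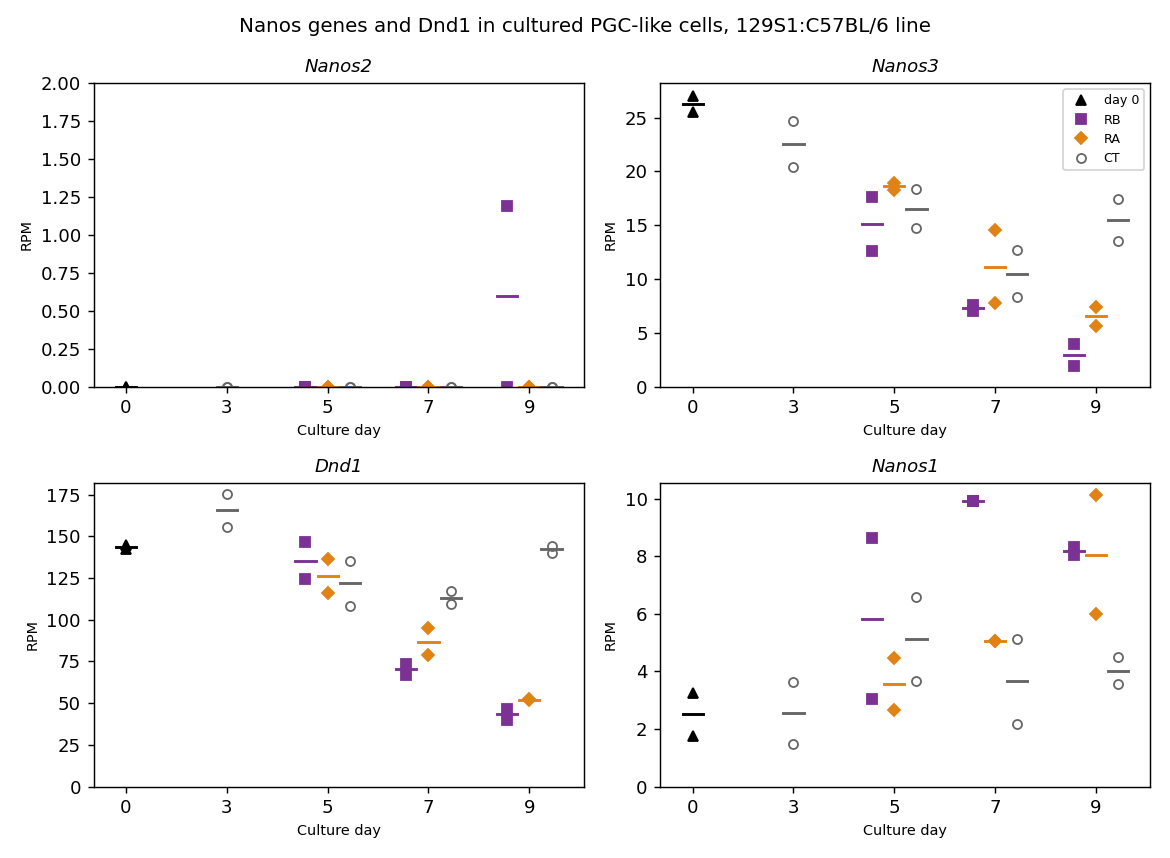
RPM of each gene by culture day in the 129S1:C57BL/6 line in each library (points) with group means (bars), 2 libraries per group, with RB, RA and CT from left to right at days 5, 7 and 9. Dnd1 and Nanos3 stand below CT under RB and RA at day 9, Nanos1 stands above it, and Nanos2 is at 0 in 21 of 22 libraries.

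Nanos1 had 1 call between a treatment and CT of the same day. At day 5 it had 3.03 and 8.64 RPM under RB, 4.48 and 2.65 under RA and 3.67 and 6.597 under CT, and all 3 groups overlapped. At day 7 both RB libraries had 9.92 RPM, RA libraries had 5.05 and 5.06, and CT libraries 5.14 and 2.16, so that RA and CT overlapped. RB against CT was called at day 7 (log2 fold change 1.31 ± 0.45, limma adjusted p = 0.0294, with 19.3% of all genes called and a median of all genes of 0.22). That call was lost with a pseudocount of 0.1 or 5, without the filter, and under both other scalings (limma adjusted p = 0.0153 to 0.188, log2 fold change 0.78 to 1.54), and without either RB library or CT replicate 2 (0.83 to 1.31, adjusted p = 0.0967 to 0.284). At day 9 Nanos1 had 8.34 and 8.05 RPM under RB and 5.99 and 10.1 under RA, against 4.499 and 3.56 under CT. Both treated groups lay above CT at day 9 without passing (0.88, limma adjusted p = 0.104 for RB, and 0.82, adjusted p = 0.192 for RA). RB at day 9 was called above CT at day 3 (1.44, adjusted p = 0.00833, with 41.1% of all genes called), though not with quantile normalization (0.74), a pseudocount of 5 (0.82) or without CT day 3 replicate 2 (0.99).

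**Figure D3:**
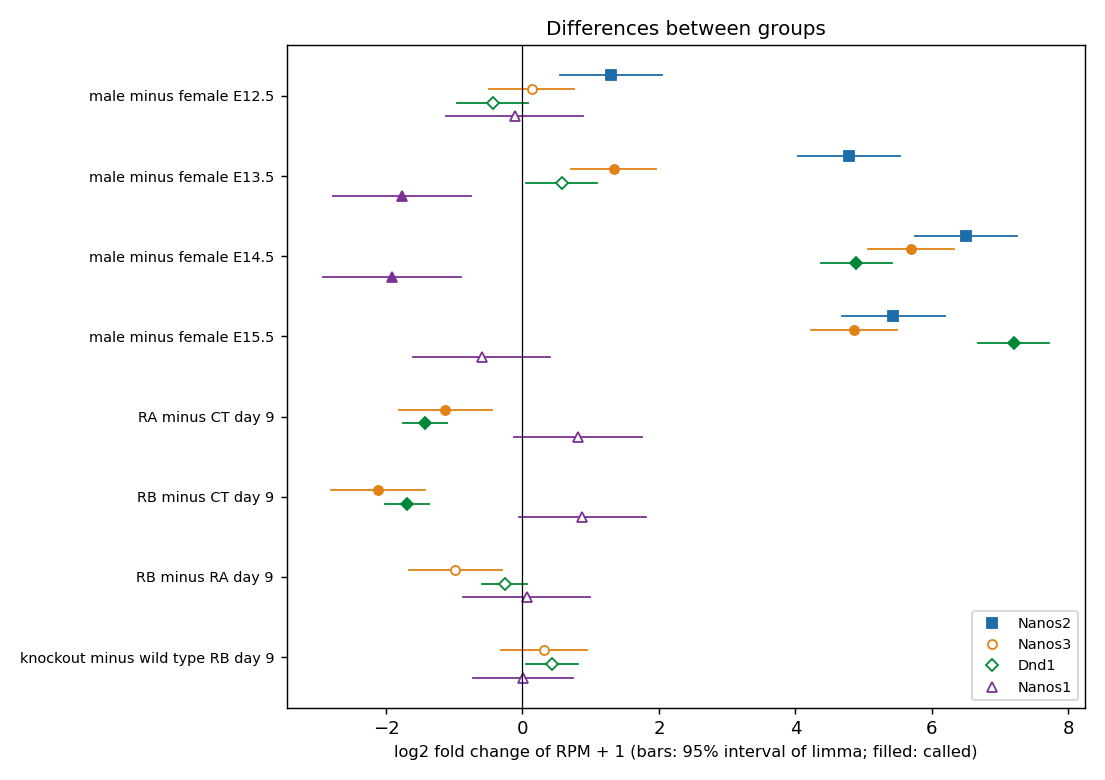
log2 fold change of RPM + 1 (points, filled where called) with the 95% interval of limma (lines) for each tested gene in 8 comparisons between groups. Intervals of Nanos2, Nanos3 and Dnd1 lie above 0 for male against female at E14.5 and E15.5. Those of Nanos3 and Dnd1 lie below 0 for RA and RB against CT. No tested gene was called for Stra8 knockout against wild type, and Nanos2 was not tested in culture.

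Stra8, the retinoid-responsive gate to meiosis, was the gene deleted in the DBA/2:C57BL/6 experiment. Its RNA stood at 77.9 to 483 RPM in the 4 Stra8-/- libraries and at 1717 to 1813 in the 2 wild-type libraries at RB day 9. Which part is deleted is not labelled, and reads at the 3′ end can lie outside it, so the remaining signal does not check the deletion.

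Loss of Stra8 gave no call in Nanos1, Nanos3 or Dnd1 on any day, and Nanos2 was too low there to be tested. The share of all genes called was 0.00819% at CT day 3, 0.0164% at RB day 5, 8.73% at day 7 and 19.1% at day 9. At day 9 Dnd1 had 21.7, 23.6, 27.3 and 34.0 RPM in Stra8-/- libraries, against 22.7 and 16.4 in wild type, which overlapped (log2 fold change 0.43, 95% interval 0.05 to 0.81, limma adjusted p = 0.071). Nanos3 had 2.60, 3.93, 3.35 and 4.64 RPM in Stra8-/- libraries and 2.52 and 2.81 in wild type (0.32, -0.31 to 0.95, adjusted p = 0.438). Nanos1 had 21.7, 22.9, 25.8 and 22.4 RPM in Stra8-/- libraries and 20.1 and 26.2 in wild type (0.01, -0.73 to 0.75, adjusted p = 0.985). At day 7 Nanos3 had 8.33, 10.4, 13.0 and 12.3 RPM in Stra8-/- libraries, all above the 6.52 and 5.34 RPM of wild type (0.78, adjusted p = 0.0742). With quantile normalization this day-7 difference was called (1.05, limma adjusted p = 0.0209). On the scale of log2(RPM + 1), the upper bounds of the 3 intervals at day 9 lie below the fold limit, that of Nanos3 narrowly. Its values there were 3 and 6 reads in wild type and 6 to 8 in Stra8-/- libraries. At such levels the added 1 shrinks the change, so a difference of Nanos3 at the fold limit is not excluded.

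In both genotypes the 3 genes differed between CT day 3 and RB day 9. This experiment had no CT after day 3, so RB and time in culture cannot be told apart. In Stra8-/- cells Dnd1 was 26.6 ± 5.42 RPM (SD, n = 4) at RB day 9 and 143 ± 10.9 at CT day 3, and in wild-type cells 19.5 ± 4.44 (n = 2) and 152 ± 0.391. Dnd1 fell by 2.40 on the log2 scale in Stra8-/- cells (limma adjusted p = 1.06e-14) and by 2.91 in wild type (adjusted p = 4.95e-13). Wdr55 fell as well, by 1.37 and by 2.01 (adjusted p = 3.7e-07 and 2.48e-07). Nanos3 fell by 1.74 in Stra8-/- cells (adjusted p = 4.46e-07) and by 2.05 in wild type (adjusted p = 9.92e-06). Nanos1 rose, to 23.2 ± 1.81 RPM at RB day 9 in Stra8-/- cells, against 2.25 ± 0.684 at CT day 3, and to 23.2 ± 4.30 in wild type, against 3.17 ± 1.502. Its log2 fold changes were 2.92 (limma adjusted p = 4.23e-10) and 2.57 (adjusted p = 3.67e-06). All 3 tested genes were called in each genotype, where 33.9% of all genes were called in Stra8-/- cells and 43.7% in wild type, with medians of all genes of 0.27 and 0.23. The change of the genotype difference at day 9 against day 3 passed for none of the 3 (limma adjusted p = 0.170 to 0.679, with 14.9% of all genes called).

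**Figure D4:**
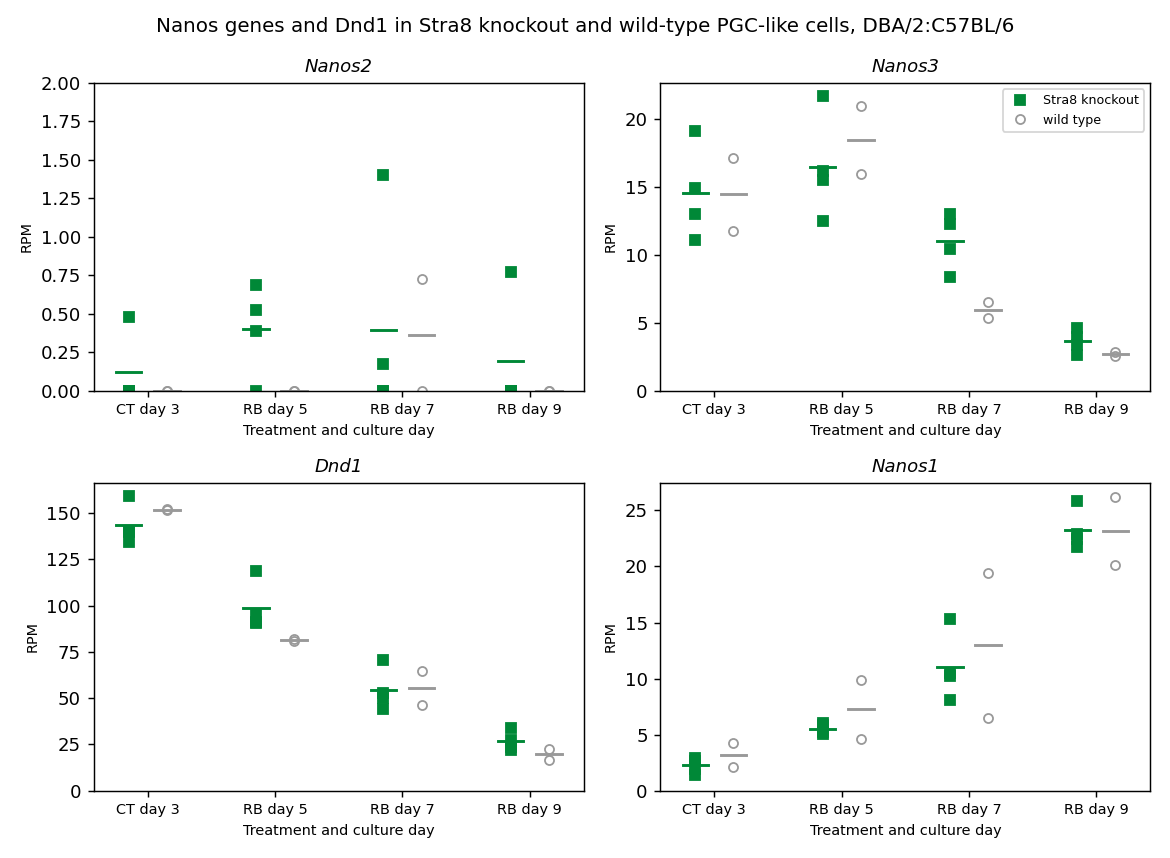
RPM of each gene in Stra8-/- (n = 4, left) and wild-type (n = 2, right) PGCLCs at CT day 3 and RB days 5, 7 and 9, with each library (points) and group means (bars). Dnd1 and Nanos3 fall and Nanos1 rises over the days in both genotypes, and the genotypes overlap at day 9.

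Single libraries are given as values with exact Poisson intervals, which cover counting error only. The 0R3B library of day 9 had 3.72 RPM of Dnd1 (95% interval 1.78 to 6.84), below the 40.1 and 46.4 RPM of RB and the 144 and 140.0 of CT on that day. It had 1.49 RPM of Nanos3 (0.406 to 3.81) and 10.8 of Nanos1 (7.23 to 15.498), and no read of Nanos2. Its Dnd1 level lay within the 1.39 to 5.78 RPM of E15.5 females, in the same table but in another experiment.

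In the C57BL/6 line Dnd1 had 169 RPM at day 0 (153 to 188) and 65.7 in the library named c7 of day 7 (57.7 to 74.4). It had 140.0 RPM in c0RB (128 to 153), against 174 in c0CT (160.0 to 189), both of culture day 2. At day 9 it had 49.5 RPM in c7RB (42.9 to 56.7) and 43.1 in c7CT (36.2 to 50.9), whose intervals overlap. Nanos3 had 13.4 RPM at day 0 (8.97 to 19.2), 12.9 in c0RB (9.54 to 17.2), 7.55 in c0CT (4.88 to 11.1) and 6.17 in c7 (3.91 to 9.25). At day 9 it had 9.05 RPM in c7RB (6.39 to 12.45) and 2.17 in c7CT (0.873 to 4.47), with RB above CT here. Stra8 had 27.5 RPM in c7RB and 24.5 in c7CT, against 1235 and 1659 under RB and 6.75 and 8.09 under CT at day 9 in the 129S1:C57BL/6 line. The spike-in transcripts summed to 9.17 RPM in c7RB and 27188 in c7CT, and the part of this in the difference was not tested. The labels do not say what c0 and c7 mean, and 1 library each gives no test.

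Ordered over all 37 groups, Dnd1 was highest in E15.5 males (592 ± 53.7 RPM, SD, n = 2), followed by E14.5 males (571 ± 35.2), which overlapped, and E12.5 females (315 ± 14.3), which lay below both. Nanos3 was highest in E14.5 males (57.6 ± 6.30), then E15.5 males (37.1 ± 9.97) and day 0 cells (26.3 ± 1.01), with no overlap between neighbours. Nanos2 ran from E14.5 males (102 ± 16.9) to E15.5 males (42.3 ± 1.97) and E13.5 males (30.7 ± 0.183), again with no overlap. Nanos1 was highest at RB day 9 in Stra8-/- and wild-type cells, which overlapped, then in E13.5 females (16.2 ± 3.79). Of the 36 pairs of neighbours in each order, 19 overlapped for Dnd1, 23 for Nanos3, 31 for Nanos1 and 33 for Nanos2. Most of those of Nanos2 are ties at 0, and groups of 1 library have no range. The share over all genes was not taken, so these counts do not rank the genes.

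Across the 37 group means of log2(RPM + 1), Pearson r was 0.86 between Nanos3 and Dnd1, -0.62 between Nanos1 and Nanos3 and -0.62 between Nanos1 and Dnd1. It was 0.42 between Nanos2 and Nanos3, 0.44 between Nanos2 and Dnd1, and -0.08 between Nanos2 and Nanos1. These are descriptions over groups that share lines, days and 1 table. Among 8942 genes, those most like Nanos2 were Krt17, a keratin (r = 0.97), Fbxo41, an F-box protein (0.97), Egr4, a transcription factor of spermatogenesis (0.96), Abcd2, a peroxisomal transporter (0.93), and Slc16a4, of the monocarboxylate transporters (0.93). All 5 had their highest group mean in E14.5 or E15.5 males. Those most like Dnd1 were Isyna1 of inositol synthesis (0.93), Smarcb1 of the BAF chromatin complex (0.92), Cc2d1b (0.92), Shmt1 of one-carbon metabolism (0.92) and Naca of the nascent chain complex (0.91). For Nanos3 they were Nsmce1 of the SMC5/6 complex (0.91), Cdca4 (0.91), Cc2d1b (0.91), Ppan of ribosome assembly (0.90) and Trim12c (0.90). Nanos1 was most like Nr3c1, the glucocorticoid receptor (0.90), Hsdl2, a peroxisomal dehydrogenase-like protein (0.90), Yaf2 of Polycomb complexes (0.90), Tarsl2, a threonyl-tRNA synthetase (0.89), and Ulk2, an autophagy kinase (0.88).

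**Figure D5:**
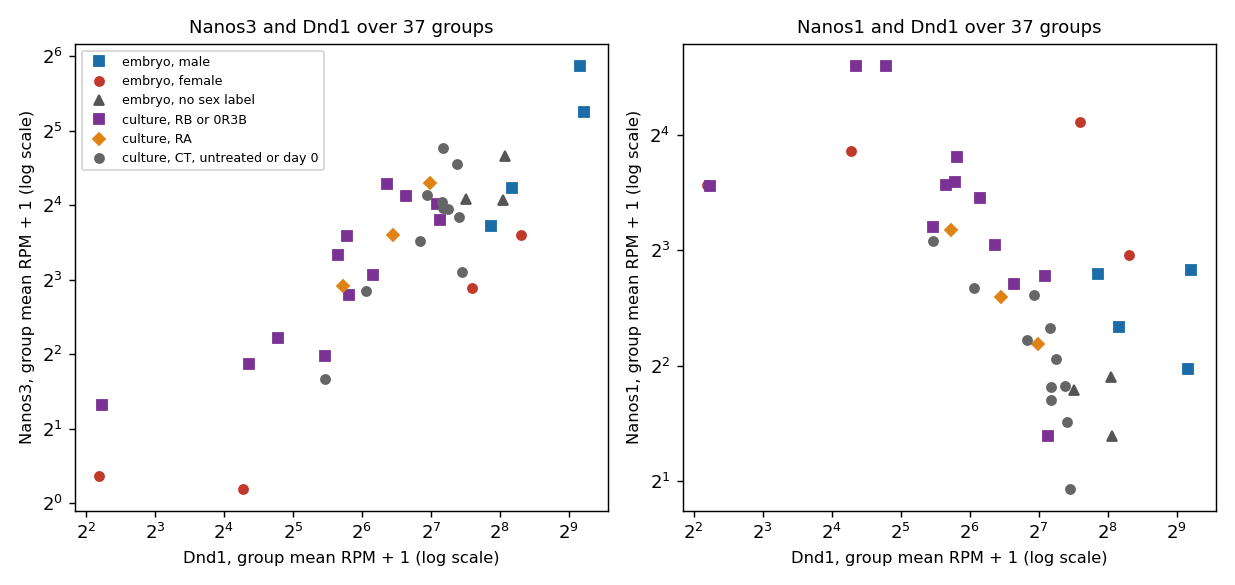
Group mean RPM + 1 of Nanos3 (left) and Nanos1 (right) against that of Dnd1, both on log2 axes, over 37 groups (points). Nanos3 is high where Dnd1 is high (Pearson r = 0.86) and Nanos1 is low there (-0.62), with males at E14.5 and E15.5 at the far right.

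The machinery that NANOS proteins recruit was measured beside them. Of 16 genes of the CCR4-NOT deadenylase, the Pumilio proteins and their TOB and BTG partners, 3 were higher and 3 lower in E14.5 males than in females (median log2 fold change -0.02, against 0.08 over all genes tested, of which 48.3% were called). Cnot2, a subunit of the complex, had 344 ± 13.7 RPM in males and 106 ± 2.01 in females, whereas Cnot1, the scaffold that vertebrate NANOS proteins contact, had 164 ± 0.725 and 372 ± 1.44 (SD, n = 2 each). Btg2, an antiproliferative adaptor, was higher in males at 31.8 ± 0.678 RPM against 8.63 ± 4.46, and Tob1, another adaptor, was lower at 8.23 ± 1.14 against 31.4 ± 2.61. Under RB against CT at day 9, 3 of the 16 rose and none fell (median 0.17, against 0.19 over all genes, of which 36.7% were called), among them Tob1 (44.3 ± 18.2 RPM under RB and 9.83 ± 0.184 under CT) and Cnot6l, a deadenylase subunit (69.1 ± 8.47 and 22.2 ± 0.555). None was called for Stra8-/- against wild type at day 9, where 19.1% of all genes were.

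Of 15 P-body and decapping genes, 2 were higher and 4 lower in E14.5 males (median 0.11, against 0.08, with 48.3% of all genes called). Eif4enif1, the transporter of the cap-binding protein, had 152 ± 4.85 RPM in males and 509 ± 6.04 in females, and Patl2, an oocyte translation repressor, had 1.33 ± 0.257 and 9.75 ± 1.71. Edc4, a decapping scaffold, was higher in males at 221 ± 7.84 RPM against 83.0 ± 4.65. Under RB 1 of the 15 rose, Eif4enif1 (372 ± 51.1 RPM under RB and 171 ± 8.05 under CT), where 36.7% of all genes were called, and none was called in Stra8-/- cells, where 19.1% were.

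A list of 6 RNAs linked to NANOS2 in earlier work had 5 lower and none higher in E14.5 males (median -3.65, against 0.08 over all genes, of which 48.3% were called). Taf7l, a germ cell TFIID subunit, had 100.3 ± 3.31 RPM in males and 1170.5 ± 109 in females, and Sohlh2, a transcription factor of oocytes and spermatogonia, had 9.42 ± 2.01 and 142 ± 23.5. Prdm9, which places meiotic breaks, had 1.595 ± 0.977 RPM in males and 92.4 ± 4.33 in females. All 6 rose under RB against CT at day 9 (median 6.17, against 0.19, with 36.7% of all genes called), in cells where Nanos2 was at or near 0 in both groups. At RB day 9, 4 fell in Stra8-/- cells (median -2.18, against 0.09, with 19.1% called). The 13 meiotic entry genes tested moved the same way in these 3 comparisons. All 13 were lower in E14.5 males (median -3.32), 12 rose under RB (4.99) and 11 fell in Stra8-/- cells (-2.26). The pattern was thus not particular to the RNAs linked to NANOS2.

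Of 8 genes of the fetal male germ line that follow Nanos2, 6 were higher in E14.5 males (median 3.93, against 0.08 over all genes, of which 48.3% were called). Under RB against CT at day 9, 5 of them were tested, with 2 higher and 1 lower (median 0.48, against 0.19, with 36.7% of all genes called). Dnmt3l, the cofactor of de novo methylation, had 54.1 ± 18.2 RPM in Stra8-/- cells (n = 4) and 2.53 ± 2.39 in wild type (n = 2) at RB day 9 (log2 fold change 4.09). Piwil4, the nuclear piRNA effector, was higher there too (72.4 ± 4.26 and 27.6 ± 13.2 RPM). The other 4 tested were not called, where 19.1% of all genes were. Of 11 Nodal and FGF genes, which act upstream of Nanos2 in the male gonad, 6 were higher and 1 lower in E14.5 males (median 1.15), 1 higher and 7 lower under RB (median -1.29), and 4 higher and none lower in Stra8-/- cells (median 0.80). The share of all genes called in these comparisons was 48.3%, 36.7% and 19.1%, and their medians 0.08, 0.19 and 0.09. Lefty1, a Nodal target and inhibitor, had 116 ± 17.6 RPM in Stra8-/- cells and 41.4 ± 3.85 in wild type at RB day 9, and 26.5 ± 4.87 under RB and 144 ± 1.89 under CT in the other line.

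Other RNA-binding regulators of translation in germ cells did not all follow Nanos2, Nanos3 and Dnd1. Of 12 listed beside them, 2 were higher and 3 lower in E14.5 males (median -0.33, against 0.08 over all genes, of which 48.3% were called). Ddx25, a testis RNA helicase (307 ± 5.95 RPM in males and 70.2 ± 3.19 in females), and Lin28a, which blocks let-7 (15.8 ± 6.19 and 1.82 ± 0.910), were higher, and Cpeb1, the cytoplasmic polyadenylation factor (63.9 ± 4.67 and 188 ± 7.43), and Rbm46 (26.3 ± 2.75 and 84.3 ± 0.0981) were lower. Under RB against CT at day 9, 6 of the 12 were higher and 1 lower (median 1.09, against 0.19). In Stra8-/- cells 3 were higher and none lower (median -0.13, against 0.09). Of 10 germ cell identity genes 5 were higher and 1 lower in E14.5 males (median 1.00), 4 higher and 6 lower under RB, and 6 higher and none lower in Stra8-/- cells. Of 13 meiotic entry genes tested, all were lower in E14.5 males, 12 rose under RB at day 9 and 11 fell in Stra8-/- cells. The share of all genes called was again 48.3% at E14.5, 36.7% for RB and 19.1% for Stra8-/-. In the cultures the 9 fibroblast genes summed to 26.6 to 58.4 RPM under RB, 114 to 199.6 under RA and 45.6 to 102 under CT at day 9, and the 12 gonadal somatic genes to 33.5 to 63.9, 29.0 to 29.6 and 8.08 to 14.46. Their part in the treatment differences was not tested.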

How the data were processed

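The deposited table holds a signal in RPM per gene and library, scaled to reads assigned to genes, per the labels, with 96 spike-in transcripts beside it on the same scale. The submitters' processing notes name cutadapt 1.11, TopHat 1.4.1, Bowtie 1.0.1, Cufflinks 2.2.0 and mm10, without the role of each. The authors' signal values were used as deposited, except that 2777 values under 0.001 RPM were set to 0. No column was left without a sample.

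Low values are multiples of 1 step, the RPM of a single read, which gave each library's depth. Of low values 81.0 to 93.2% were whole reads (tolerance 0.05), so reads were not recovered for the whole table and no count test was run.

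Tests used log2(RPM + 1) in limma 3.58.1 (R 4.3.3, lmFit, eBayes with trend), with 1 mean per group and each experiment fitted alone: 22 embryo libraries (12567 genes, 11 residual degrees of freedom), 22 of the 129S1:C57BL/6 line (11873 genes, 11) and 24 of the Stra8 experiment (12206 genes, 16). A gene entered at 5 RPM in at least 2 libraries. Nanos2 entered in the embryo alone, and Nanos1, Nanos3 and Dnd1 in all 3 experiments. The limma fit was tested on simulated data. Changes were set there only in genes averaging 5 RPM or more, so that run does not cover differences between lower values. Intervals are at 95%; those for reads are exact Poisson or binomial.

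Named genes are the 4 members in every comparison, Stra8, up to 4 called genes of each list in 3 comparisons, with some omitted, and the 5 genes with the highest Pearson r of group means among genes reaching 20 RPM. Wdr55 was added after its values were seen. There were 11 lists with 119 genes. The members and lists were chosen with earlier results of these data known. Promoter sequences came from RefSeq (GRCm38.p6; 3 of 4 members shown), and gene overlaps and exons from GENCODE release M21 on the same assembly. Alternatives were pseudocounts of 0.1 and 5, no filter, median centring, quantile normalization, only the compared groups, robust eBayes, a replicate block, each library left out in turn, and the 2 SK1 libraries averaged.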

Additional observations from a re-analysis of the deposited data

Results flagged for a closer look

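The sex difference (male minus female, log2) changed between neighbouring stages for 3 of the 4 genes. For Nanos2 it changed by 3.48 at E13.5 against E12.5 and by 1.71 at E14.5 against E13.5. The change for Nanos3 at E14.5 against E13.5 was 4.36. Dnd1 changed by 4.32 in that step and by 2.31 at E15.5 against E14.5. Over all genes tested, the sex difference changed for 1.87% at E13.5 against E12.5, 38.5% at E14.5 against E13.5 and 4.37% at E15.5 against E14.5. Both Nanos2 changes were lost with a pseudocount of 0.1 (limma adjusted p = 0.152 and 0.224). Stage and sorting reporter cannot be told apart at E14.5 against E13.5.

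The effect of RB against CT changed at day 9 against day 5 by -1.98 for Nanos3 and by -1.85 for Dnd1. This contrast called 29.7% of all genes.

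Each of the 4 genes was examined in the 4 groups of 4 Stra8-/- libraries, which gave 16 sets of values. In 3 of these sets, 1 library passed the 95% limit of Dixon's test for distance from the other 3. Chance passes it in about 1 of 20 separate sets of continuous values, but these sets share libraries across genes. Where the other 3 libraries are at 0, as at CT day 3 and RB day 9, a single read passes it, so that rate does not hold. All 3 concern Nanos2, with 0.479 RPM at CT day 3, 1.403 RPM at RB day 7 and 0.773 RPM at RB day 9 in 1 library and 0 to 0.170 RPM in the others. These values are 3, 4 and 1 reads.

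Among the single libraries of the C57BL/6 line, Nanos3 stood at 9.05 RPM in c7RB, above the 2.17 RPM of c7CT, with counting intervals that do not meet. Their spike-in signals also differed, as given above.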

How the results depend on the processing

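Of the 28 differences tested in the 8 main comparisons, 18 kept direction and side of the threshold under every alternative, among them Nanos2, Nanos3 and Dnd1 at E14.5 and E15.5 and Dnd1 under RA and RB. Nanos2 at E12.5 was lost with a pseudocount of 5 (0.40) and with only the compared groups fitted (1.30, limma adjusted p = 0.201), and ran from 0.75 to 1.85 with 1 library left out. Nanos3 at E13.5 was under the fold limit with a pseudocount of 5 (0.99). Leaving out 1 library gave -1.99 to -1.54 for Nanos1 at E13.5, -1.29 to 0.091 at E15.5 and -0.55 to 0.32 at E12.5, and -0.12 to 0.39 for Nanos3 at E12.5. Quantile normalization called Nanos1 at E15.5 (-1.16). Nanos3 for RA against CT was -0.83 with a pseudocount of 5 and -1.30 to -0.95 with 1 library left out. For RB against RA it was called with a pseudocount of 0.1 (-1.21), median centring (-1.03) and quantile normalization (-1.02), and ran from -1.38 to -0.59 with 1 library left out, while Nanos1 ran from -0.27 to 0.40. Nanos1 in Stra8-/- against wild-type cells turned to -0.070 with median centring and -0.086 with quantile normalization, and ran from -0.17 to 0.19. The cause was not tested. The count of genes called between the sexes at E12.5 was 820, and 365 with a pseudocount of 5, 0 (limma, 2901 at an unadjusted p under 0.05) with only the compared groups and 505 to 726 with 1 library left out. A pseudocount of 5 gave 1126 against 2101 at E13.5, 1098 against 1934 for RA and 1466 against 2335 for Stra8-/- cells at day 9.

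Fitting only the compared groups also ended calls between neighbouring stages. These were Nanos2 in males at E13.5 against E12.5 (limma adjusted p = 0.099) and at E12.5 against E11.5 (0.177), Dnd1 in females at E15.5 against E14.5 (0.199), Nanos1 and Nanos3 in females at E12.5 against E11.5 (0.13 and 0.115), and the changes of the sex difference of Nanos2 at E13.5 (0.06) and of Dnd1 at E15.5 (0.0501). The counts of genes called in these steps were 0 against 545, 18 against 871, 0 against 617, 1 against 1066, 13 against 235 and 108 against 549. At an unadjusted p under 0.05 the male step at E13.5 had 2834 genes and the female step at E15.5 had 2471. The male step at E15.5 against E14.5 had 0 against 240 (1825 unadjusted), and 108 to 558 called under the pseudocounts, without the filter and with quantile normalization. With 1 library left out, the counts were 282 to 323 in the male step at E13.5, 50 to 255 in that at E15.5, 295 to 706 in the female step at E15.5, and 104 to 207 and 309 to 637 for the changes of the sex difference at E13.5 and E15.5. A pseudocount of 5 gave 1287 against 2292 for RB against CT at day 7, and 460 against 1066 for Stra8-/- cells at day 7.

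The deviations of same-numbered libraries correlated over pairs of groups at -0.07 to 0.05 in the embryo (0 of 55 pairs above 0.1), -0.07 to 0.24 in the 129S1:C57BL/6 line (11 of 55) and 0.0006 to 0.13 in the Stra8 experiment (8 of 28). Since not every pair was above 0.1 in any of them, the numbers were not taken to pair the libraries. Spike-in signal did split by number in the Stra8 experiment, at 31407.5 to 48450 RPM in wild-type and SK1 libraries numbered 1. Those numbered 2, and SK3, had 5.095 to 49.865 RPM. SK2 had 26445 and 32068 RPM at days 3 and 5, and 3.23 and 13.1 at days 7 and 9. The labels do not explain this split, and its part in the genotype differences was not tested. A replicate block changed no call described here, with Nanos2 at E12.5 at 1.30 (limma adjusted p = 0.0222) and 810 against 820 genes called.

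Groups of 2 libraries limit every test, and 9 reads in all stand behind Nanos2 at E12.5 and at most 4 in a library behind its culture values.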
